A study of Callithrix jacchus with 39 samples.

Results

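The genes described here were abundant in the inner cell mass (ICM) of marmoset blastocysts and scarce in naive-like marmoset embryonic stem cells (ESCs). A gene ID was a member when its mean level was 10 CPM (counts per 1000000 counts of the library) or more in each of 4 ICM stages, the blastocyst, expanded, hatching and hatched stages. Its mean also had to be at most 10% of the lowest of these stage means in both groups of naive ESCs. Of 30811 gene IDs, 7261 reached the ICM minimum, and 57 of these (0.785%) met the whole rule. Members were thus chosen by their measured naive and ICM levels, so the difference between these groups is given as a description, with no test.

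The ICM of a mammalian blastocyst gives rise to the epiblast, which forms the embryo proper, and to the hypoblast (primitive endoderm), which lines the yolk sac. GATA6 and NANOG mark the hypoblast and epiblast fates, and PDGFRA, SOX17, GATA4 and FOXA2 are further genes of the hypoblast. Primate ESCs in standard culture are primed, near to the postimplantation epiblast, while naive cells are cultured or reprogrammed towards the preimplantation state.

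The series sequenced poly(A)+ RNA of common marmoset (Callithrix jacchus) cells and embryos in 39 libraries, 3 for each of 13 groups. Naive ESCs were titled DSY-c2_N_TgON and N40_N_TgOFF. Primed ESCs were titled DSY-c2_P_Tg, N40_P_Tg, DSY127 and No.40. Embryo groups began with the morula, went on with 5 stages of ICM (early blastocyst, blastocyst, expanded, hatching and hatched) and ended with the epiblast after implantation. The labels give no culture medium, embryo age or sex, and they do not define Tg, TgON or TgOFF, so the transgene state cannot be told apart from the line. Nor do they say if libraries with the same label had their own culture or embryo, so p-values measure a spread between libraries that may be technical.

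Total counts were 38836947 to 78726217 in ESC libraries and 45257233 to 59037179 in embryo libraries. Across gene IDs, pairs of libraries within an ESC group had r of 0.979 to 0.997, and pairs within an ICM stage 0.895 to 0.955. The labels were checked against marker lists. Of 14 naive pluripotency genes with a symbol, 12 reached the ICM minimum and 0 were members. Their summed level was 3887 to 4198 CPM in DSY-c2 naive and 5303 to 5744 CPM in N40 naive libraries, against 1155 to 2230 CPM in the 12 primed libraries. In the 12 ICM libraries of the rule it was 3203 to 6842 CPM, and in the epiblast 524 to 574 CPM.

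In the primed groups 3 libraries stood apart by members, and each had the highest sums of its group for the marker lists given below. Replicate 4 of DSY-c2 primed was at least 2 times both other libraries of its group for 16 of the 57 members (background 1.76% of the 7261 IDs). Replicate 1 of No.40 was so for 12 members (background 1.46%). Both sets of members held GATA6, PDGFRA, COLEC12, FOXA2, NRG1, APOBEC2, NOSTRIN, ELOVL7, PTK6 and TMEM176B. Replicate 3 of DSY127 was so for 9 members (background 0.441%), among them SOD3, NOSTRIN, ELOVL7, COLEC12, PTK6 and GLYCTK. The summed level of 20 primitive endoderm genes in these libraries was 5561 CPM, against 3083 and 3263 CPM in the other DSY-c2 primed libraries, 5526 CPM, against 3335 and 3587 CPM in the other No.40 libraries, and 7196 CPM, against 4346 and 3878 CPM in the other DSY127 libraries. The summed level of 12 fibroblast and mesenchyme genes was 12745 CPM, against 2237 and 2791 CPM in DSY-c2 primed, 15315 CPM, against 2236 and 7988 CPM in No.40, and 10722 CPM, against 8599 and 4397 CPM in DSY127. Replicate 2 of No.40 was at least 2 times both others for 7 members (background 0.303%), with ABCB4 as the 1 member with a symbol, and it was kept, since No.40 would otherwise hold 1 library. Whether other cell types had a part in these values was not tested. The counts of members in primed groups are given with and without replicate 4 of DSY-c2 primed, replicate 1 of No.40 and replicate 3 of DSY127.

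All 57 members were low in naive cells by the rule, and their levels in primed cells differed from member to member. In all 4 primed groups 30 of the 57 members were at 10% or less of their lowest ICM mean (background 1.27%), as they were in naive cells. Without the 3 libraries named above the number was 34 (1.36% of the 7261 IDs). In at least 1 primed group 18 members reached 10 CPM or more (background 95.5%), and without those libraries 15 did (95.3%). Naive cells averaged at or below the primed cells of the same line for 32 members in DSY-c2 (background 40.6%) and for 19 members in N40 (background 39.4%). Without the 3 libraries these numbers were 33 (40.3%) and 19 (39.4%). The rule used the naive values, so nothing is read from these counts. The set is called the naive-low ICM genes here.

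Symbols were found for 27 of the 57 members (47.4%), against 5586 of the 7261 IDs at the ICM minimum (76.9%). The other 30 members carry an Ensembl ID alone and could not be assigned a role. Across members, the median of the group means was 1.03 CPM in DSY-c2 naive and 1.25 CPM in N40 naive cells, and between 0.752 CPM (N40) and 2.41 CPM (No.40) in primed groups. It was 9.39 CPM in the morula, 32.4 CPM in the early ICM, 60.9, 66.8, 64.6 and 54.0 CPM in the blastocyst, expanded, hatching and hatched ICM, and 6.75 CPM in the epiblast. Over all 7261 IDs the same median lay between 55.1 CPM in the epiblast and 63.6 CPM in DSY-c2 naive cells. In bulk samples, fewer cells of a type and less RNA per cell cannot be told apart.

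**Figure D1:**
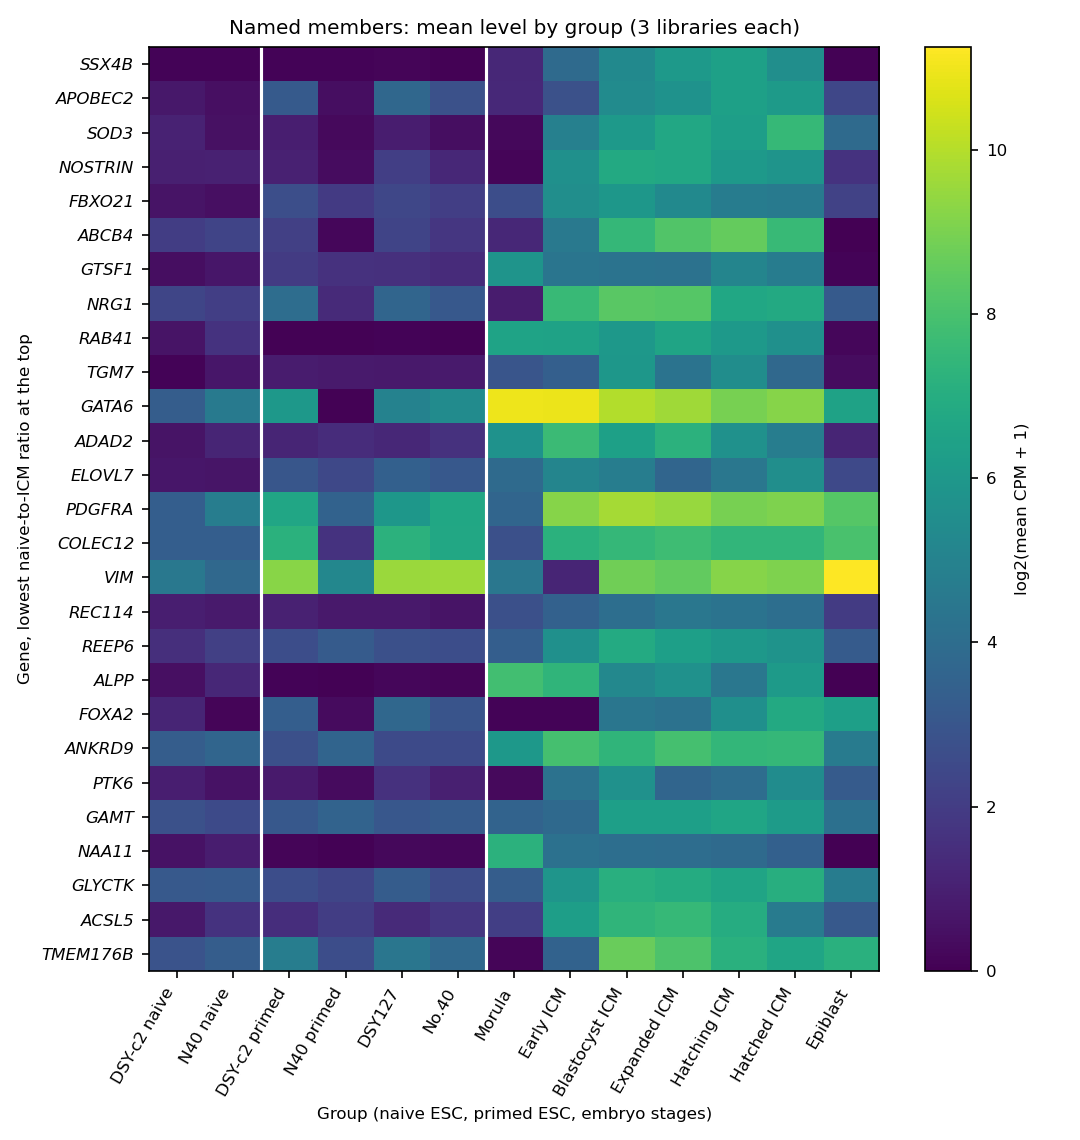
Mean level of the 27 members with a symbol (rows, lowest naive-to-ICM ratio at the top) in each of 13 groups of 3 libraries (columns), as log2(mean CPM + 1) in colour. Naive columns at the left are dark by the rule, the 4 ICM columns from blastocyst to hatched are bright by the rule, and the primed, morula, early ICM and epiblast columns vary from gene to gene.

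Among regulators of the hypoblast, GATA6 (ENSCJAG00000020543), a zinc finger transcription factor that drives primitive endoderm, was low in both naive lines. It stood at 6.84, 16.1 and 3.73 CPM in DSY-c2 naive libraries and at 37.8, 16.4 and 17.0 CPM in N40 naive libraries. The 12 ICM libraries had 252 to 1990 CPM, with a median of 497 CPM. No naive library reached the lowest ICM library. In primed cells GATA6 had 12.8, 165 and 8.31 CPM in DSY-c2, 116, 10.4 and 1.27 CPM in No.40 and 34.9, 7.79 and 48.5 CPM in DSY127. N40 primed libraries had 0.102, 0.0515 and 0.0267 CPM. The level of the naive cells was thus above that of the primed cells in N40, while in DSY-c2 the naive and primed libraries overlapped. The morula, at 1251, 2019 and 2826 CPM, was above the median ICM library in all 3 libraries.

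PDGFRA (ENSCJAG00000018415), a receptor tyrosine kinase of the hypoblast lineage, had 6.99, 11.8 and 8.66 CPM in DSY-c2 naive and 44.8, 15.7 and 18.8 CPM in N40 naive libraries. In the 12 ICM libraries it had 146 to 1525 CPM, with a median of 579 CPM. The naive and ICM libraries did not overlap. In the morula it had 14.0, 11.5 and 9.94 CPM, close to the naive levels and below every ICM library.

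FOXA2 (ENSCJAG00000005785), a forkhead transcription factor of endoderm, had 0.704, 1.68 and 1.26 CPM in DSY-c2 naive and 0.221, 0.106 and 0 CPM in N40 naive libraries. Its ICM level differed between libraries of the same stage. The blastocyst libraries had 0, 0.577 and 60.9 CPM and the expanded ICM libraries 0.906, 52.1 and 0 CPM. All 3 hatching libraries (21.2, 57.7 and 62.3 CPM) and all 3 hatched libraries (78.6, 97.3 and 166 CPM) were above every naive library. FOXA2 was therefore under 1 CPM in 4 of the 12 ICM libraries, and its place in the set rests on the means.

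COLEC12 (ENSCJAG00000000146), a scavenger receptor of the collectin family, had 6.83, 15.6 and 5.41 CPM in DSY-c2 naive and 12.4, 7.02 and 8.21 CPM in N40 naive libraries. The 12 ICM libraries had 48.8 to 252 CPM, with a median of 209 CPM. In primed DSY-c2 cells it had 51.4, 350 and 27.2 CPM, so that primed and ICM libraries overlapped. In primed N40 cells, at 1.73, 2.69 and 2.01 CPM, they did not.

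**Figure D2:**
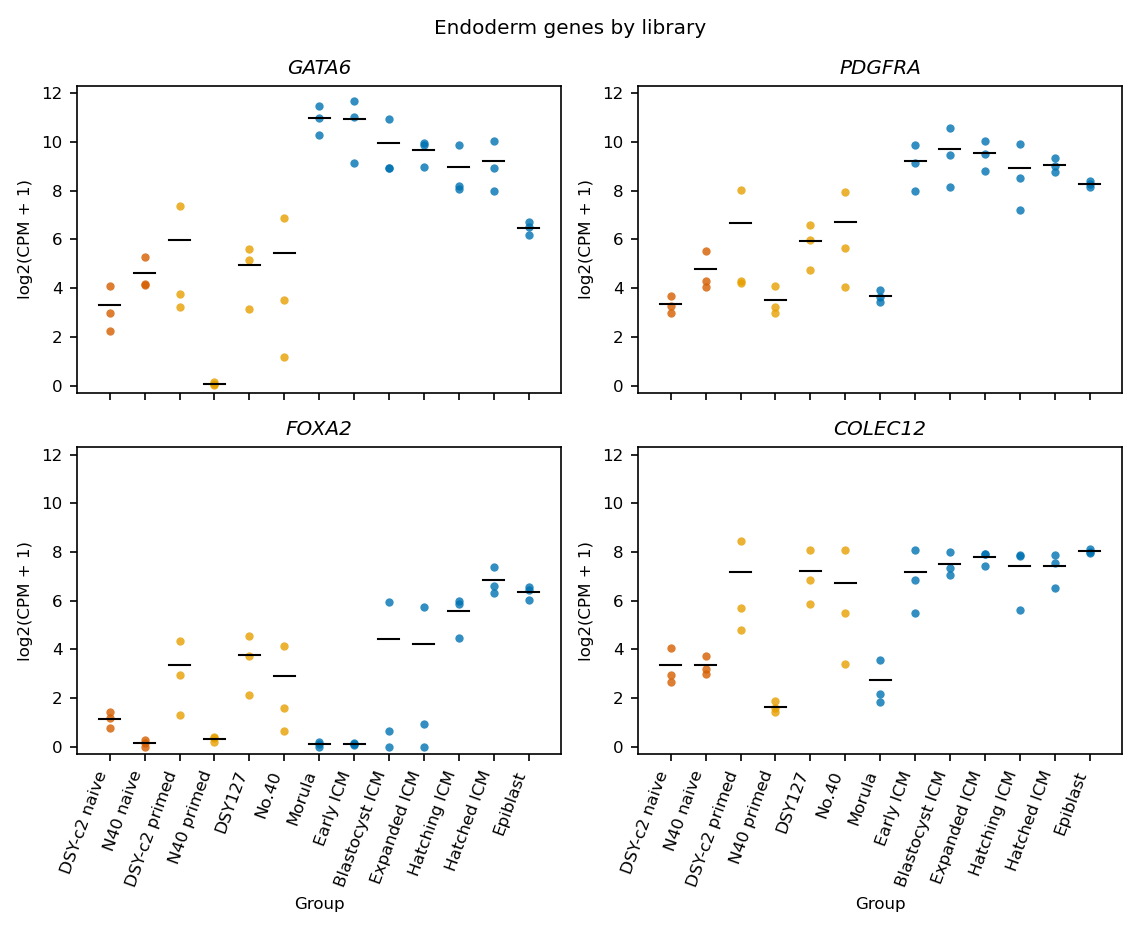
Level of GATA6, PDGFRA, FOXA2 and COLEC12 as log2(CPM + 1) in every library (points, 3 per group) with the log2 of the group mean plus 1 (bars), naive ESCs in red-orange, primed ESCs in yellow and embryos in blue. GATA6 and PDGFRA are above every naive library in all 12 ICM libraries of the rule, whereas FOXA2 is near 0 in the morula, the early ICM and some blastocyst and expanded ICM libraries.

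Most of the primitive endoderm list was not in the set. Of 20 genes of that list with a symbol, 14 reached the ICM minimum and 3 of these, GATA6, PDGFRA and FOXA2, were members. The median naive-to-ICM ratio of the 14 (higher naive mean over lowest ICM stage mean) was 132%, against 139% over all 7261 IDs. The summed level of the 20 genes was 1376 to 2624 CPM in DSY-c2 naive and 557 to 827 CPM in N40 naive libraries. The ICM libraries of the rule had 2204 to 13610 CPM and the primed libraries 3083 to 7196 CPM. N40 naive libraries thus lay below every ICM library of the rule, while the ranges of DSY-c2 naive and ICM libraries overlapped. These sums include the 3 members, which the rule made low in naive cells. HNF4A, a nuclear receptor of visceral endoderm, averaged 143 CPM in DSY-c2 naive and 63.2 CPM in N40 naive cells, against 44.5 to 72.4 CPM in the 4 ICM stages. GATA4, another zinc finger factor of the hypoblast, averaged 17.5 and 21.6 CPM in naive cells, against 17.0 to 46.0 CPM in the ICM. LRP2 (megalin), an endocytic receptor of visceral endoderm, averaged 462 CPM in DSY-c2 and 107 CPM in N40 naive cells, against 336 to 629 CPM in the ICM. NID2, a basement membrane protein, had a ratio of 19.6%, above the limit.

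Among ligands and extracellular proteins, NRG1 (ENSCJAG00000007626), a ligand of ErbB receptors, had 3.45, 4.33 and 4.75 CPM in DSY-c2 naive and 4.80, 2.82 and 2.31 CPM in N40 naive libraries. The 12 ICM libraries had 32.1 to 418 CPM, with a median of 256 CPM. SOD3 (ENSCJAG00000013121), the extracellular superoxide dismutase, had 0.597 to 1.76 CPM in DSY-c2 naive and 0.186 to 0.788 CPM in N40 naive libraries, against 50.8 to 313 CPM in the ICM. Both genes were above every naive library in all 12 ICM libraries. SOD3 was at most 1.35 CPM in the 12 primed libraries, while NRG1 reached 33.7 CPM in replicate 4 of DSY-c2 primed.

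Among membrane and trafficking proteins, NOSTRIN (ENSCJAG00000006199), which directs the traffic of endothelial nitric oxide synthase, had 0.816 to 1.36 CPM in the 6 naive libraries, against 21.5 to 159 CPM in the ICM libraries. ABCB4 (ENSCJAG00000014528), a phosphatidylcholine transporter, had 2.08 to 7.39 CPM in naive libraries, against 61.6 to 705 CPM in the ICM. Its epiblast libraries held 0 counts, which, if counts are independent, allows up to 0.0192 CPM over the group (3 counts). TMEM176B (ENSCJAG00000020128), a membrane protein best known from dendritic cells, had 5.82 to 11.3 CPM in naive libraries, against 44.2 to 1035 CPM in the ICM. It lay nearest to the limit among members with a symbol, at 9.31%, followed by ACSL5 (8.80%) and GLYCTK (8.61%). Just outside the limit were TYMP (11.1%), CERS3 (11.9%) and CNDP1 (12.1%). RAB41 (ENSCJAG00000012441), a small GTPase with close paralogs, had 0.0972 to 3.06 CPM in naive libraries, against 26.8 to 131 CPM in the ICM and at most 0.118 CPM in the 12 primed libraries.

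Several members are known from germ cells or placenta. GTSF1 (ENSCJAG00000018968), a cofactor of PIWI proteins in transposon silencing, had 0.0555 to 1.22 CPM in naive libraries, against 11.8 to 46.2 CPM in the ICM. It was the only member among 22 maternal oocyte genes with a symbol (6 at the ICM minimum, median ratio 51.7%). It was also the only one among 16 transposon control genes (5 at the ICM minimum, median ratio 60.4%). REC114 (ENSCJAG00000017991), which acts in meiotic recombination, had 0.388 to 1.20 CPM in naive libraries, against 6.95 to 45.9 CPM in the ICM. ADAD2 (ENSCJAG00000003981), a testis RNA-binding protein, had 0.305 to 2.07 CPM in naive libraries, against 3.15 to 211 CPM in the ICM. No naive library of these 3 genes reached an ICM library.

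SSX4B (ENSCJAG00000014776), a cancer-testis gene, had the lowest ratio of a member, 0.233%, and also a wide spread. Its naive libraries had 0 to 0.221 CPM. Its blastocyst libraries had 102, 7.34 and 8.50 CPM, its expanded ICM libraries 79.3, 0.0750 and 124 CPM, and its hatching libraries 27.0, 210 and 9.28 CPM. One expanded ICM library thus lay within the naive range. ALPP (ENSCJAG00000013693), placental alkaline phosphatase, had 0.192 to 2.46 CPM in naive libraries, against 6.73 to 146 CPM in the ICM. NAA11 (ENSCJAG00000023110), an N-terminal acetyltransferase subunit, had 0.111 to 1.99 CPM in naive libraries, against 4.49 to 31.6 CPM in the ICM. SSX4B, ALPP, NAA11 and RAB41 belong to families of similar genes, among which the counting could split reads, so that their levels are uncertain.

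Among enzymes of metabolism, ACSL5 (ENSCJAG00000018943), an acyl-CoA synthetase, had 0.416 to 3.80 CPM in naive libraries, against 5.67 to 236 CPM in the ICM. ELOVL7 (ENSCJAG00000015335), a fatty acid elongase, had 0.345 to 0.878 CPM, against 1.96 to 82.1 CPM. GAMT (ENSCJAG00000005596), which makes creatine, had 4.22 to 6.49 CPM, against 21.9 to 158 CPM. These ranges did not overlap, nor did those of GLYCTK (ENSCJAG00000006155), glycerate kinase, at 6.49 to 9.81 CPM against 37.3 to 307 CPM. The list of 22 lipid and steroid genes held 2 at the ICM minimum and 0 members.

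VIM (ENSCJAG00000008688), the intermediate filament vimentin, had 13.8, 32.7 and 18.2 CPM in DSY-c2 naive and 18.9, 11.2 and 8.75 CPM in N40 naive libraries. In the ICM it had 10.7 to 1425 CPM, with a median of 359 CPM, and the lowest blastocyst library and 1 hatched library (24.4 CPM) lay within the naive range. Primed libraries had 176, 1497 and 138 CPM in DSY-c2, 38.2, 34.4 and 35.7 CPM in N40, 1022, 364 and 874 CPM in DSY127 and 1140, 1077 and 133 CPM in No.40. All 12 primed libraries were thus above all 6 naive libraries for VIM. VIM was the only member among 12 fibroblast and mesenchyme genes with a symbol, of which 2 reached the ICM minimum (median ratio 42.9%). The summed level of that list was 247 to 421 CPM in DSY-c2 naive and 271 to 584 CPM in N40 naive libraries, against 25.8 to 1468 CPM in the 12 ICM libraries. In primed libraries it was 1310 to 15315 CPM.

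The remaining members with a symbol were APOBEC2 (ENSCJAG00000004063), of the cytidine deaminase family, FBXO21 (ENSCJAG00000009509), an F-box protein of ubiquitin ligases, TGM7 (ENSCJAG00000002937), a transglutaminase, PTK6 (ENSCJAG00000010243), a non-receptor tyrosine kinase, REEP6 (ENSCJAG00000005705), a protein of the endoplasmic reticulum, and ANKRD9 (ENSCJAG00000009811), an ankyrin repeat protein. APOBEC2 had 0.304 to 0.784 CPM in naive libraries, against 0.793 to 123 CPM in the ICM, so that 1 ICM library lay at the edge of the naive range. FBXO21 and PTK6 each had 1 ICM library within the naive range, and TGM7 had 1 ICM library at 0 counts. REEP6 had 1.28 to 3.79 CPM in naive libraries, against 31.5 to 168 CPM in the ICM. ANKRD9 had 7.42 to 12.4 CPM in naive libraries, against 88.3 to 328 CPM in the ICM.

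Over all members, every ICM library was above every naive library for 47 of 57 (background 10.9%), a count that the rule favours and from which nothing is read. A total of 33 members were at 10 CPM or more in all 12 ICM libraries, and 9 were under 1 CPM in at least 1 of them.

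**Figure D3:**
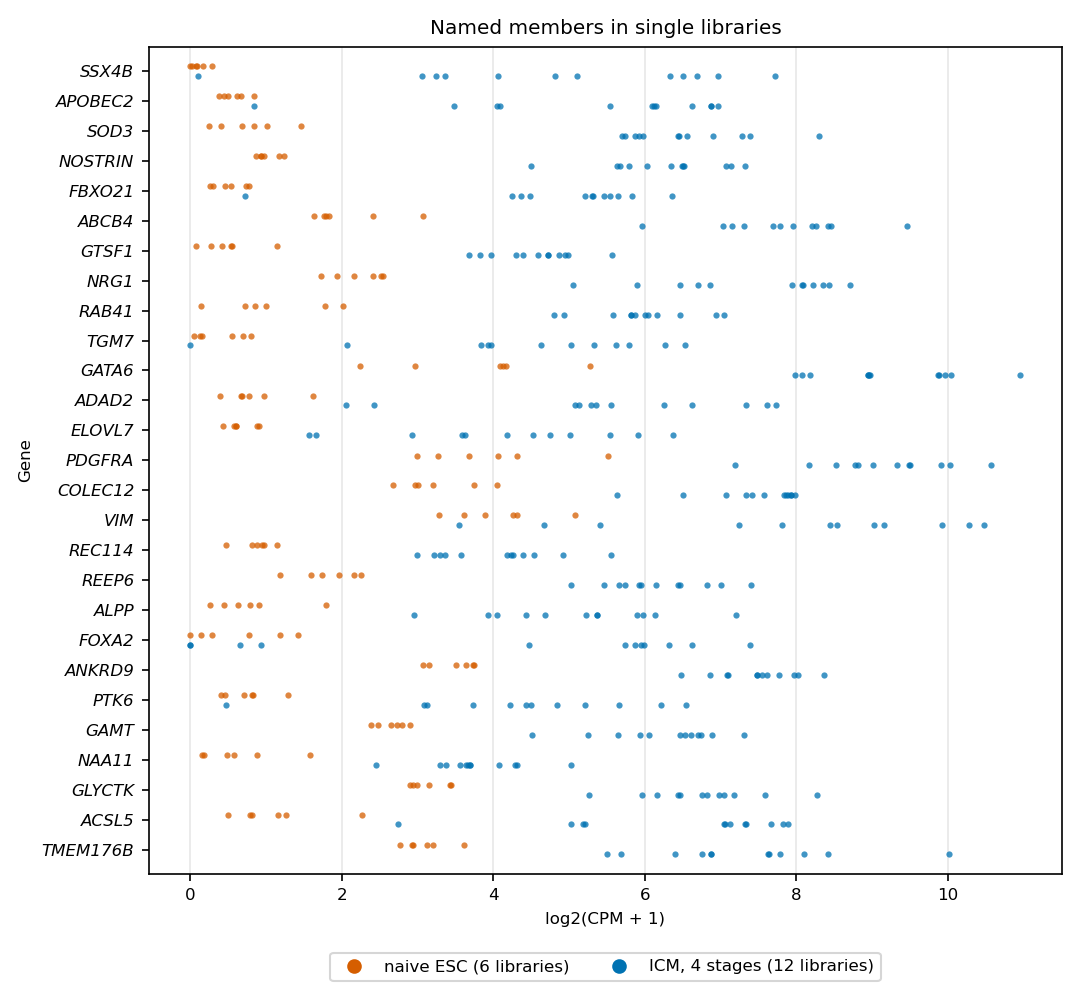
Level of the 27 members with a symbol in single libraries, as log2(CPM + 1), with the 6 naive ESC libraries above the 12 ICM libraries of the rule in each row. The 2 sets of points are separate for 21 of the 27 genes, and for SSX4B, FBXO21, TGM7, VIM, FOXA2 and PTK6 at least 1 ICM library lies within the naive range or below it.

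Among the 30 members without a symbol, ENSCJAG00000013154 had 0.0959, 0.345 and 0.125 CPM in DSY-c2 naive and 0.318, 0.451 and 0.107 CPM in N40 naive libraries. The 12 ICM libraries had 48.7 to 427 CPM, and all 12 primed libraries held 0 counts. ENSCJAG00000012665 had the opposite pattern in primed cells. It was at 3.12 to 14.2 CPM in the 6 naive libraries and 104 to 2054 CPM in the 12 primed libraries, and it ranged from 1.54 to 1383 CPM in the ICM. ENSCJAG00000013062 had 24.9 to 53.3 CPM in naive libraries, against 394 to 1232 CPM in primed and 214 to 8010 CPM in ICM libraries. For these last 2 IDs every naive library was below every primed library.

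Levels in the groups that the rule did not use were then examined. In the early ICM 46 of the 57 members had a mean of 10 CPM or more (background 94.9%), and 4 were at 10% or less of their lowest later ICM mean (background 0.578%). In the morula these numbers were 28 (background 90.5%) and 19 (background 2.77%). In the epiblast they were 23 (background 90.1%) and 18 (background 1.97%). At 10% or less were 39 members in DSY-c2 primed cells (background 1.82%), 47 in N40 primed cells (background 2.75%), 34 in DSY127 (background 1.69%) and 38 in No.40 (background 2.2%). Without the 3 libraries that stood apart, the numbers were 45 in DSY-c2 (background 1.98%), 37 in DSY127 (1.79%) and 43 in No.40 (2.49%). At 10 CPM or more were 12, 7, 16 and 11 members in DSY-c2 primed, N40 primed, DSY127 and No.40 cells (backgrounds 94.1%, 92.1%, 94.2% and 93.7%). Without the 3 libraries they were 10, 7, 13 and 7 (backgrounds 93.7%, 92.1%, 94% and 93%).

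Members fell into classes by stage. Of the 57, 19 were under 10 CPM in both the morula and the epiblast (background 2.62%), among them SSX4B, NOSTRIN, NRG1, ABCB4 and ACSL5. A further 15 had 10 CPM or more in the morula and not in the epiblast (background 7.33%), among them RAB41, ALPP, NAA11, GTSF1 and ADAD2. The reverse held for 10 members (background 6.87%), among them SOD3, COLEC12, FOXA2 and TMEM176B. The last 13 (background 83.2%), among them GATA6, PDGFRA, VIM and ANKRD9, reached it in both. At least 1 primed group and the epiblast reached 10 CPM for 15 members (background 88.7%), a primed group alone for 3 (background 6.82%), the epiblast alone for 8 (background 1.38%) and neither for 31 (background 3.13%). Without the 3 libraries that stood apart these numbers were 13, 2, 10 and 32 (backgrounds 88.5%, 6.79%, 1.54% and 3.15%).

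Differences between groups outside the rule were tested with edgeR's quasi-likelihood test, with calls where p, adjusted by Benjamini-Hochberg over all genes of the fit, was under 0.05. Changes are log2 fold changes ± standard error (SE), with 3 libraries in each embryo group and in each of the 4 primed groups, which were averaged. All 57 members passed the low-count filter in each fit, which the ICM levels of the rule favour. Backgrounds of calls are shares of all genes tested, not of the 7261 IDs at the ICM minimum.

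The early ICM was first compared with the morula, the step at which the ICM appears. Of 57 members 15 were higher in the early ICM (background 3.89% of 16929 genes) and 1 was lower (background 2.27%). The median change was 1.26 over the members and 0 over all genes. Replicate 1 of the early ICM was at least 2 times both others for 14 members (background 6.14%), among them SOD3, NOSTRIN, COLEC12, PTK6 and ACSL5, and without it 14 members were higher and 1 lower. NRG1 had 295, 105 and 165 CPM in the early ICM, against 0.915, 1.09 and 0.407 CPM in the morula. It rose by 7.94 ± 0.73 (edgeR adjusted p = 2.85e-05). SOD3 had 48.1, 15.4 and 23.3 CPM in the early ICM, against 0.153, 0.148 and 0.220 CPM in the morula, and rose by 7.41 ± 0.68 (edgeR adjusted p = 2.85e-05). PDGFRA had 943, 257 and 566 CPM in the early ICM and rose by 5.70 ± 0.72 (edgeR adjusted p = 0.000276). For these 3 genes the early ICM and morula libraries did not overlap.

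COLEC12 (4.70 ± 0.73), TMEM176B (6.41 ± 1.19), NOSTRIN (8.69 ± 1.68), ACSL5 (4.64 ± 0.91), GLYCTK (2.71 ± 0.58), REEP6 (2.46 ± 0.56), ANKRD9 (2.03 ± 0.52) and PTK6 (6.53 ± 1.78) also rose, and the libraries of PTK6 and ANKRD9 overlapped. NAA11 alone fell, to 22.1, 9.91 and 20.8 CPM in the early ICM, against 140, 107 and 198 CPM in the morula (fell by 3.02 ± 0.60, edgeR adjusted p = 0.00759). GATA6 did not pass, at 570, 2092 and 3251 CPM in the early ICM, against 1251, 2019 and 2826 CPM in the morula. FOXA2 had at most 0.148 CPM in any library of either group. In a fit of the early ICM and morula alone 4 members (PDGFRA, SOD3, NRG1 and GLYCTK) were higher. NOSTRIN, PTK6, TMEM176B, COLEC12, ACSL5, REEP6, ANKRD9 and 4 members without a symbol did not pass there, with edgeR adjusted p between 0.0506 and 0.175. The PTK6 call was also lost in 5 of the 6 fits that left out a library.

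The epiblast was next compared with the early ICM, which spans implantation. Of 57 members 33 were lower in the epiblast (background 16.3%) and 5 were higher (background 15.7%). The median change was -2.25 over the members and 0.12 over all genes. With the size factors of DESeq2 these medians were -1.97 and 0.39. GATA6 had 89.1, 72.7 and 105 CPM in the epiblast, against 570, 2092 and 3251 CPM in the early ICM, and fell by 4.66 ± 0.79 (edgeR adjusted p = 0.000401). RAB41 had 0.0383, 0.293 and 0.113 CPM in the epiblast, against 119, 90.0 and 57.4 CPM in the early ICM, and fell by 9.37 ± 0.78. GTSF1 fell by 8.35 ± 1.04, with 0, 0.196 and 0 CPM in the epiblast, against 21.2, 22.4 and 14.8 CPM in the early ICM. Every early ICM library was above every epiblast library for these genes.

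ALPP, NAA11 and ABCB4 had 0 counts in all 3 epiblast libraries. Set against 3 counts over the epiblast group, taken as independent, the epiblast mean was at least 8581-fold lower than the early ICM for ALPP. It was at least 917-fold lower for NAA11 and at least 1170-fold lower for ABCB4. Small counts were mostly even numbers, so counts may come in pairs and these bounds may be too high. The early ICM libraries of ABCB4 had 59.4, 0.599 and 7.42 CPM, so its bound rests mostly on replicate 1. ADAD2 (-7.51 ± 1.71) and SSX4B (-8.56 ± 2.29) fell, whereas REC114 (-2.04 ± 0.88, edgeR adjusted p = 0.0833) did not pass. Also lower in the epiblast were NRG1 (-4.69 ± 0.62), ANKRD9 (-3.46 ± 0.56), ACSL5 (-3.48 ± 0.86), FBXO21 (-3.83 ± 1.07), REEP6 (-2.75 ± 0.57), ELOVL7 (-3.05 ± 1.07), TGM7 (-5.19 ± 1.80) and, with overlapping libraries, NOSTRIN (-4.67 ± 1.37). TGM7 lost its call without any 1 of the 6 libraries compared, with adjusted p between 0.0513 and 0.102.

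VIM had 2331, 2389 and 2600 CPM in the epiblast, against 1.02, 1.43 and 1.35 CPM in the early ICM, and rose by 10.73 ± 2.01 (edgeR adjusted p = 0.000878). FOXA2 had 93.8, 86.3 and 65.2 CPM in the epiblast, against 0.0442, 0.116 and 0.0773 CPM in the early ICM, and rose by 9.79 ± 2.65 (edgeR adjusted p = 0.0112). TMEM176B rose by 3.56 ± 0.98, with 136, 138 and 143 CPM in the epiblast, against 15.2, 0.869 and 15.5 CPM in the early ICM. PDGFRA (-1.09 ± 0.60), SOD3 (-1.20 ± 0.51) and COLEC12 (0.72 ± 0.62) did not pass. In the epiblast libraries the 12 fibroblast and mesenchyme genes summed to 5347 to 5598 CPM, with 1 of the 12 at 0 in each, against 2.61 to 13.8 CPM in the early ICM. The 20 primitive endoderm genes summed to 7061 to 7219 CPM in the epiblast, against 3770 to 5992 CPM in the early ICM. Both sums include members (VIM, and GATA6, PDGFRA and FOXA2), and the part of other cells in these changes was not tested.

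**Figure D4:**
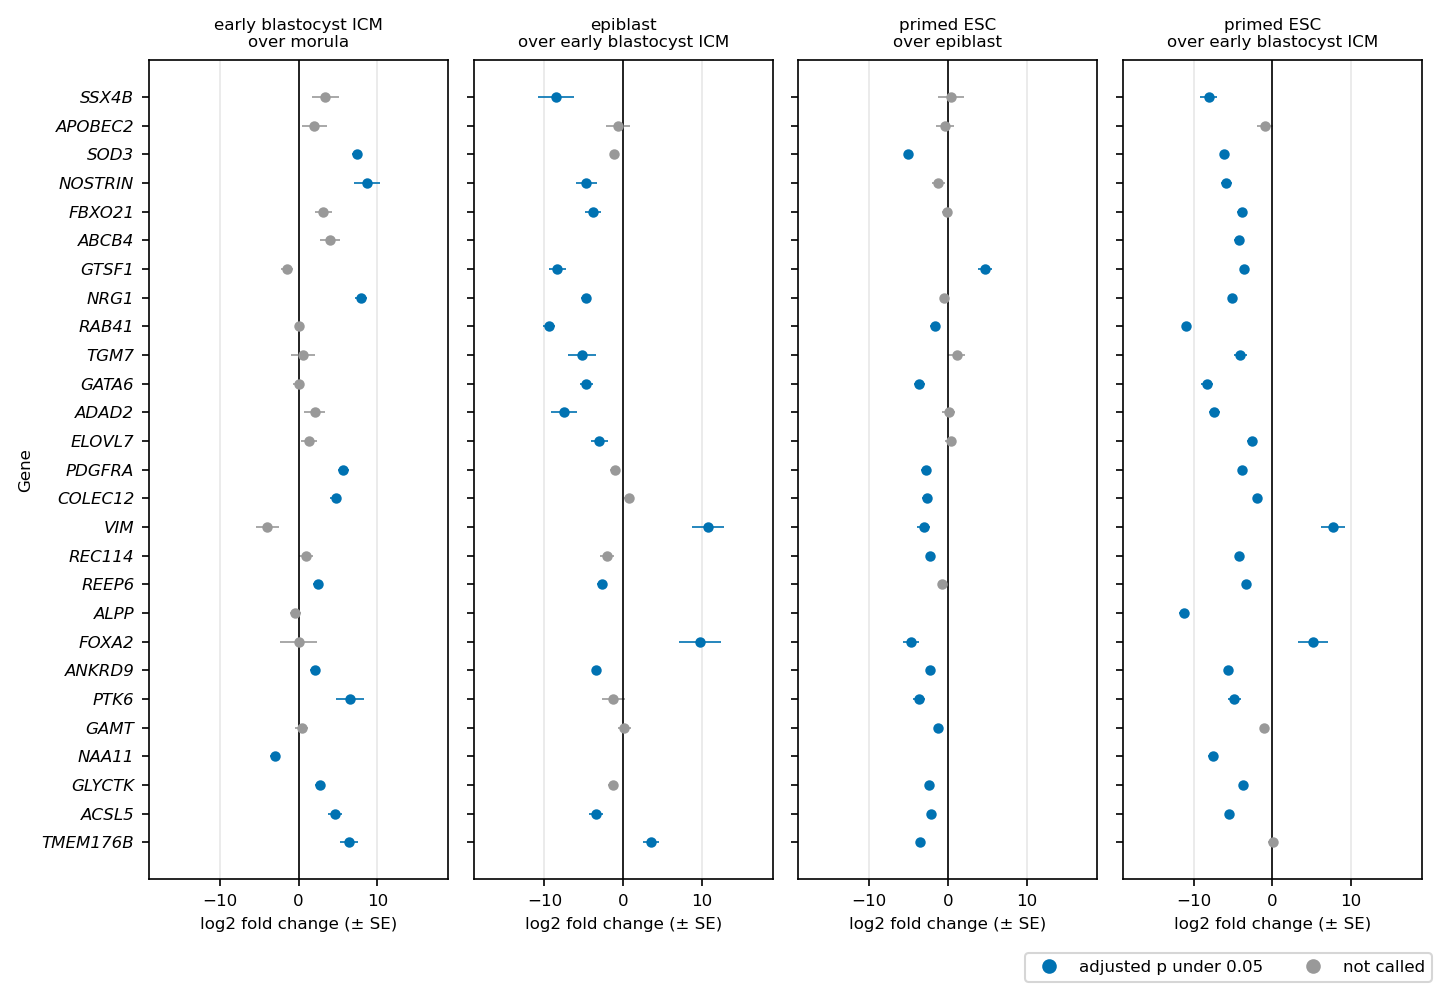
log2 fold change ± SE of the 27 members with a symbol in the 4 comparisons outside the rule (blue, edgeR adjusted p under 0.05; grey, not called). Points lie mostly to the right of 0 in the early ICM over the morula and mostly to the left in the other 3 comparisons, with VIM and FOXA2 to the right in the epiblast and in primed cells over the early ICM. ABCB4, ALPP and NAA11 have no point in the panels with the epiblast, where they had 0 counts.

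Primed ESCs were compared with the epiblast, the tissue that they are held to resemble. Of 57 members 38 were lower in primed cells (background 20% of 18756 genes) and 6 were higher (background 18.4%). The higher ones included NAA11 and ALPP, with 0 counts in the epiblast and at most 0.305 CPM in a primed library. The low-count filter of this fit also used the ICM libraries of the rule, so nothing is read from these calls. The median change was -2.41 over the members and 0.00 over all genes. Without the 3 primed libraries that stood apart, 38 were lower and 6 higher (6310 genes called in all, against 7205 with them). Every epiblast library was above every primed library for 29 members (background 27.3%), and for 32 without those libraries (29.2%). SOD3 had 0.103 to 1.35 CPM in the 12 primed libraries, against 16.8, 14.4 and 10.8 CPM in the epiblast, and fell by 4.99 ± 0.38 (edgeR adjusted p = 1.55e-11). PDGFRA had 6.99 to 264 CPM in primed libraries, against 339, 282 and 306 CPM in the epiblast, and fell by 2.82 ± 0.57 (edgeR adjusted p = 0.000206). FOXA2 had 0.16 to 22.2 CPM in primed libraries, against 93.8, 86.3 and 65.2 CPM in the epiblast, and fell by 4.68 ± 1.06 (edgeR adjusted p = 0.000800). These groups did not overlap.

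GATA6 fell by 3.62 ± 0.72 (edgeR adjusted p = 0.000193), but its primed libraries, at 0.0267 to 165 CPM, overlapped the epiblast at 72.7 to 105 CPM. The 2 overlapping libraries were replicate 4 of DSY-c2 primed and replicate 1 of No.40. Without the 3 libraries that stood apart GATA6 fell by 5.11. COLEC12 (-2.69 ± 0.58) was also lower with an overlap, and was -3.87 without these libraries. High levels of members, GATA6 and COLEC12 among them, had singled these libraries out, so the choice favours larger falls without them. VIM (-3.07 ± 0.79), PTK6 (-3.64 ± 0.81), TMEM176B (-3.54 ± 0.50), GLYCTK (-2.40 ± 0.34), ANKRD9 (-2.22 ± 0.29), REC114 (-2.19 ± 0.52) and ACSL5 (-2.08 ± 0.46) were lower with no overlap. GTSF1 rose by 4.74 ± 0.84, at 1 to 3.30 CPM in primed libraries, against 0, 0.196 and 0 CPM in the epiblast. Against 3 counts over the epiblast group, again taken as independent, the primed mean was at least 129-fold higher for ABCB4. NAA11 and ALPP had at most 0.305 CPM in a primed library. On the same terms the primed mean was at least 6.35-fold higher for NAA11, with overlapping libraries, and at least 5.03-fold higher for ALPP. The ALPP call was lost without any 1 of the epiblast libraries. Culture and embryo as sources of the RNA cannot be told apart from this contrast.

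Primed ESCs were also compared with the early ICM, the same kind of difference as in the rule but in groups that it did not use. The rule used the later ICM stages and naive cells of the DSY-c2 and N40 lines. It thus favours lower values in primed cells here, and the count is given as a description. Of 57 members 47 were lower in primed cells (background 26.6%) and 4 were higher (background 36.1%). The median change was -4.82 over the members and 0.55 over all genes, and with the size factors of DESeq2 it was -4.62 and 0.76. Without the 3 primed libraries that stood apart, 48 were lower and 4 higher (11078 genes called in all, against 11771 with them). Without early ICM replicate 1, 44 were lower and 4 higher. RAB41 had at most 0.118 CPM in the 12 primed libraries, against 119, 90.0 and 57.4 CPM in the early ICM, and fell by 10.97 ± 0.55 (edgeR adjusted p = 2.06e-16). GATA6 fell by 8.24 ± 0.76 (edgeR adjusted p = 1.75e-10), with no overlap between its primed libraries (highest 165 CPM) and the early ICM (lowest 570 CPM). Also lower, with no overlap, were ALPP (-11.20 ± 0.59), SSX4B (-8.08 ± 1.08), NAA11 (-7.59 ± 0.59), ADAD2 (-7.36 ± 0.73), SOD3 (-6.15 ± 0.39), ANKRD9 (-5.65 ± 0.28), ACSL5 (-5.52 ± 0.45) and NRG1 (-5.13 ± 0.46).

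VIM rose by 7.70 ± 1.51 in primed cells over the early ICM (edgeR adjusted p = 8.29e-05), and FOXA2 rose by 5.15 ± 1.86 (edgeR adjusted p = 0.0177). FOXA2 lost its call without early ICM replicate 1 or 3, with adjusted p of 0.0572 and 0.0527. ENSCJAG00000012665 rose by 8.68 ± 1.41. APOBEC2 (-0.92), GAMT (-1.02) and TMEM176B (0.07) did not pass. The 2 comparisons of primed cells share the primed libraries, and those with the early ICM share its libraries, so the values are given side by side only.

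A group of 13 members had every embryo library, of all 7 stages, above every ESC library (background 1.67%). The rule used 12 of these embryo libraries and 6 of these ESC libraries. It thus favours this count, from which nothing is read. ANKRD9 was the 1 member with a symbol among them, at 3.84 to 13.2 CPM in the 18 ESC libraries and 18.9 to 338 CPM in the 21 embryo libraries. ENSCJAG00000014258 had 0.813 to 4.08 CPM in ESC libraries and 21.1 to 54.8 CPM in embryo libraries. ENSCJAG00000019320 had 0.0388 to 1.02 CPM in ESC libraries and 21.2 to 191 CPM in embryo libraries. What sets culture and embryo apart as sources of RNA cannot be told apart from this difference.

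**Figure D5:**
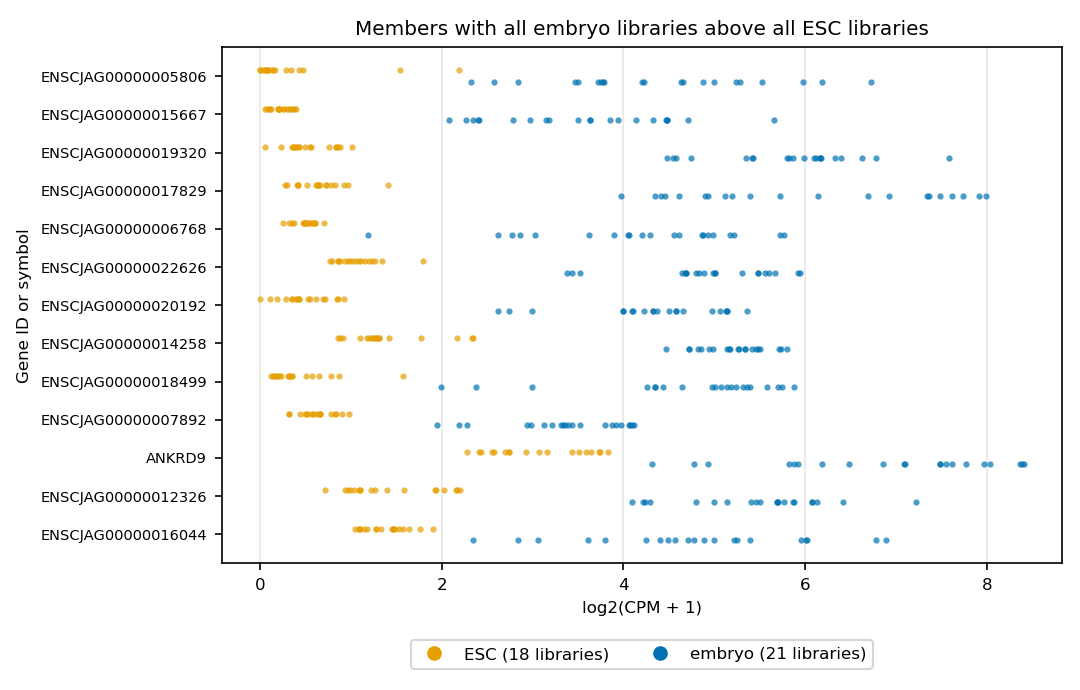
The 13 members for which all 21 embryo libraries (blue) lie above all 18 ESC libraries (orange), as log2(CPM + 1) per library. The rule favours this pattern. The gap is widest for IDs such as ENSCJAG00000019320 and narrowest for ENSCJAG00000005806, with 3.55 CPM in the highest ESC and 3.99 CPM in the lowest embryo library.

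Gene order was read from the RefSeq table of assembly calJac240_pri, which may differ from the build of the files. All 27 members with a symbol were placed in it. Of their 54 direct neighbours 32 had a count ID of that symbol, 15 reached the ICM minimum, and the median naive-to-ICM ratio of these 15 was 108%. None of the 32 was a member, but the 22 other neighbours, and members without a symbol, could not be matched. GATA6 lies beside RBBP8 (ratio 173%), SOD3 beside DHX15 (108%) and NRG1 beside WRN (265%). The lowest ratios of the 15 were those of ZDHHC6 beside ACSL5 (56.2%) and DEPDC1B beside ELOVL7 (60.4%). TSPO2 beside APOBEC2 had a ratio of 3.12% but was under the ICM minimum, with a lowest stage mean of 5.56 CPM.

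The other lists held no member. Trophectoderm genes reached the ICM minimum for 7 of 15 (median ratio 126%), primed pluripotency genes for 2 of 11 (441%), zygotic genome activation genes for 2 of 7 (192%) and tight junction genes for 14 of 21 (168%). Ion and water transport genes did so for 8 of 20 (157%), nutrient transporters for 6 of 20 (81.5%), lipid and steroid genes for 2 of 22 (72.1%) and xenobiotic and redox genes for 4 of 13 (181%). The 1 metallothionein with a symbol did not. The counts were 4 of 15 for innate immunity (63.8%), 4 of 9 for immediate early genes (110%), 7 of 9 for p53 and stress genes (154%) and 6 of 14 for imprinted genes (450%). They were 10 of 14 for epigenetic regulators (256%), 4 of 20 for signalling ligands (179%) and 1 of 8 for maternal tract and blood genes (596%). The summed trophectoderm level was 487 to 885 CPM in naive libraries, against 617 to 2515 CPM in the 12 ICM libraries.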

How the data were processed

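Raw counts per gene were deposited by the authors for 30811 Ensembl gene IDs. Reads were processed with Trim Galore 0.4.0, STAR 2.5.3a and featureCounts 1.5.2, per the submitters' processing notes. A stranded kit was used, per the labels' protocols. Strand setting and genome build were not given in the sources used here. Each library is the sum of 2 of the 78 columns used (2 runs), and 6 other columns were not used. The chi-square per gene between paired runs was 1.91 to 2, and between libraries within a group at least 28.1. Even numbers made up 64.1% of small counts (1 to 49) but 50.7% of large ones (from 500), so tests were repeated with halved counts.

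CPM used the total count per library. Symbols came from a reference gene table and covered 12660 IDs. Tests used edgeR 4.0.16 in R 4.3.3 (TMM, filterByExpr, robust quasi-likelihood), with all 21 embryo libraries in 1 fit for the embryo comparisons and all 39 in another for primed cells. SE was the size of the log2 fold change over the square root of F. The test was also run on simulated data with the groups compared alone, so recovery in the larger fits was not measured. There the early ICM over morula test recovered 17 of 100 genes changed 4-fold and 54 of 100 changed 16-fold (2 of 73 calls false). The numbers were 11 and 44 for the epiblast over the early ICM (1 of 56 false), 80 and 90 for primed cells over the epiblast (13 of 183), and 65 and 86 for primed cells over the early ICM (8 of 159).

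A floor was 3 counts over a group, with each count taken as independent. The excess of even small counts was not allowed for, so floors may be too low and the folds against them too high. Floors cover counting error only, while the SE also holds the spread between libraries. Members, the 21 gene lists and the comparisons were chosen with earlier results of these data known. Values are given for members with a symbol that had the lowest ratios, the highest ICM or primed means, a place near the limit or in a list, or the largest called changes. A few IDs without a symbol and some other genes were chosen after their values were seen. Alternatives were DESeq2 1.42.0, its size factors, other low-count filters, halved counts, fits of the groups compared alone, a replicate block, leaving out each library, and other limits for members.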

Additional observations from a re-analysis of the deposited data

Results flagged for a closer look

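For 4 members every DSY-c2 naive library lay below every DSY-c2 primed library, while every N40 naive library lay above every N40 primed library. The difference between the lines was not tested, and naive values were used in choosing the members. COLEC12 had 5.41 to 15.6 CPM in naive and 27.2 to 350 CPM in primed DSY-c2 libraries, a ratio of means of 0.065. In N40 it had 7.02 to 12.4 CPM in naive and 1.73 to 2.69 CPM in primed libraries, a ratio of 4.31. TMEM176B had 5.82 to 6.65 CPM in naive and 17.1 to 41.9 CPM in primed DSY-c2 libraries (ratio 0.24), and 7.74 to 11.3 CPM in naive and 4.23 to 6.44 CPM in primed N40 libraries (ratio 1.72). ENSCJAG00000020147 had ratios of 0.38 in DSY-c2 and 2.6 in N40.

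ENSCJAG00000005008 had 0.959 to 1.54 CPM in naive and 3.93 to 71.4 CPM in primed DSY-c2 libraries, a ratio of 0.0413. In N40 it had 1.30 to 4.23 CPM in naive and 0 to 0.0533 CPM in primed libraries, so that its N40 ratio rests on a few counts. In each case the naive levels of the lines were closer to each other than the primed levels. DSY-c2 primed includes replicate 4, which was the highest library for all 4 members. Without it, a choice made after seeing the data, the DSY-c2 ratios were 0.236 for COLEC12, 0.338 for TMEM176B, 0.533 for ENSCJAG00000020147 and 0.11 for ENSCJAG00000005008. The other 2 primed libraries were also above the naive libraries for all 4 members.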

How the results depend on the processing

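The number of members, 57, became 117 at a ratio of at most 20%, 29 at 5% and 11 when every ICM library had to be at least 10 times every naive library. It was 60 with TMM-scaled CPM, 42 with medians of libraries (40 shared), 67 and 41 with ICM minimums of 5 and 20 CPM, and 48 to 61 without 1 library. In the early ICM over the morula, 4 members were higher in a fit of only these groups, and 3 were lower with DESeq2 (all genes called were 1042, against 213 and 2956). Leaving out 1 library gave 10 to 15 higher and 1 lower there, with 513 and 581 genes called in all without morula replicate 1 or 2. It gave 4 to 5 higher and 27 to 31 lower in the epiblast over the early ICM (5423 genes called, against 3532 without epiblast replicate 2). It gave 4 to 6 higher and 33 to 37 lower in primed cells over the epiblast, and 3 to 4 higher and 44 to 48 lower over the early ICM. In primed cells over the epiblast 7205 genes were called, against 12387 in a fit of only these groups. Repeats were tallied only for the largest called changes of members with a symbol, by comparison and direction. Among these repeats 764 kept direction and call, 22 lost the call and 0 reversed. The tally left out REEP6 and ANKRD9, whose calls in the early ICM over the morula were lost in the fit of only these groups. ALPP in primed cells over the epiblast lost its call with halved counts (adjusted p = 0.0634) and without any 1 epiblast library. The fits and counts without the 3 primed libraries that stood apart were chosen after seeing the data. Without replicate 4 of DSY-c2 primed and replicate 1 of No.40 alone, 6 members were higher and 35 lower over the epiblast, and 4 and 47 over the early ICM. All genes called were then 6401 over the epiblast and 11427 over the early ICM. The cause of these changes was not tested.

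Samples with the same replicate number had deviations that correlated at -0.0714 to 0.0706, so they share only a number. With the replicate block, 16 members were higher and 1 lower in the early ICM, 6 and 32 in the epiblast over the early ICM, 6 and 34 in primed cells over the epiblast, and 4 and 47 over the early ICM. Values of FOXA2 and SSX4B are limited by the spread between ICM libraries of a stage.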
